A study of Mus musculus with 8 samples.

Results

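Complex I, or NADH:ubiquinone oxidoreductase, is described here through 44 nuclear genes in the RNA of mouse hearts, out of 141239 counted features. Protein-coding genes were taken by symbol (Nduf followed by a, b, c, s, v, ab or af and a number), leaving out Ndufa4 and Ndufa4l2. This gave 36 genes of subunits and 8 genes of Ndufaf assembly factors. The rule used no measured value, although members and gene lists were chosen with earlier results of these data known. By role, 7 of the subunits are core, 10 are accessory subunits of the matrix arm and 19 are accessory subunits of the membrane arm.

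Complex I takes electrons from NADH, passes them along a flavin and a chain of iron-sulfur clusters to ubiquinone, and pumps protons across the inner mitochondrial membrane. The core subunits carry out this catalysis and have bacterial relatives, and the membrane-arm core subunits are encoded in mitochondrial DNA. Accessory subunits surround and stabilise the core, whereas assembly factors help build the enzyme and are not part of the finished complex. Heart muscle is rich in mitochondria and expresses these genes strongly.

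Bulk RNA was sequenced from hearts of 2-week-old mice of mixed strain, all labelled as knockouts of Lmna, which encodes the A-type lamins of the nuclear lamina. Libraries 1 to 5 (n = 5) are AAV9-LMNA hearts, from knockouts into which wild-type LMNA was brought with AAV9, an adeno-associated virus vector that infects heart muscle. Libraries 6 to 8 (n = 3) are untreated knockout hearts, whose labels name no vector. The comparison asks how knockout hearts with the vector differed from those without it. Hearts with intact Lmna and hearts given an empty or control vector were not analysed here, so the untreated knockout is no healthy level, and an effect of the vector cannot be told apart from one of LMNA. The sources used here give neither promoter nor dose of the vector, neither sex nor litter of the mice, and do not say that each library is a separate animal. The p-values therefore speak only of the spread between these libraries.

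The tables held 21439956 to 26492443 counts on features per library. Lmna itself had 393, 227, 325, 312 and 747 CPM (counts scaled to a common library total by the TMM method) in AAV9-LMNA libraries 1 to 5, against 46.4, 68.7 and 32.3 CPM in untreated knockout libraries 6 to 8, and was 8.16-fold higher (log2 fold change 3.03 ± 0.46 SE, quasi-likelihood test of edgeR, adjusted p = 0.00486 by Benjamini-Hochberg). The groups did not overlap, although counts remained in the knockout and the tables do not separate mouse from vector transcripts. All 14 cardiomyocyte markers were detected, with summed levels of 80800 to 94600 CPM in AAV9-LMNA hearts and 65500 to 92100 CPM in untreated knockout hearts. Library 6 had a fibroblast marker sum of 1690 CPM, against 4560 to 7460 CPM in the other libraries, and library 8 had 877 CPM of atrial markers, against 17.8 to 30.9 CPM in the others. Reads outside all features made up 12.1 to 12.8% in AAV9-LMNA libraries, and 24.7, 16.8 and 18.4% in untreated knockout libraries 6, 7 and 8. Results are therefore also given without libraries 6 and 8.

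For each role, the promoter of the most changed member is shown first, among those with a RefSeq promoter entry on GRCm38.p6, because many members moved together. Each runs 5′ to 3′ from 250 bases before the transcription start through the first 30 bases of the gene. Capitals mark the letters of a searched motif. Ndufs8 (core) lies at chr19:3912745-3913024 on the minus strand, Ndufa12 (matrix arm) at chr10:94198785-94199064 on the plus strand, Ndufs5 (membrane arm) at chr4:123718157-123718436 on the minus strand, and Ndufaf3 (assembly factor) at chr9:108567407-108567686 on the minus strand.
Ndufs8: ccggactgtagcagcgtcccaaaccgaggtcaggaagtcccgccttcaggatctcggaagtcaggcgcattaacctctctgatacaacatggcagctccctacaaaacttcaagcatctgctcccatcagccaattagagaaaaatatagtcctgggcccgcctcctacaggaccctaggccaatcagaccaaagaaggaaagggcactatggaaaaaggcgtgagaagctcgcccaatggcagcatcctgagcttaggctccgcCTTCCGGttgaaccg
Ndufa12: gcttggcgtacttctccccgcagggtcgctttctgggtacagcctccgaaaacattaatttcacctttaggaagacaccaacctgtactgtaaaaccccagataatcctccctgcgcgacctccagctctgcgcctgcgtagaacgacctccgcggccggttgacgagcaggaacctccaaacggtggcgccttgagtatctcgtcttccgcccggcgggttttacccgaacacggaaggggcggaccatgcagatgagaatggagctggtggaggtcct
Ndufs5: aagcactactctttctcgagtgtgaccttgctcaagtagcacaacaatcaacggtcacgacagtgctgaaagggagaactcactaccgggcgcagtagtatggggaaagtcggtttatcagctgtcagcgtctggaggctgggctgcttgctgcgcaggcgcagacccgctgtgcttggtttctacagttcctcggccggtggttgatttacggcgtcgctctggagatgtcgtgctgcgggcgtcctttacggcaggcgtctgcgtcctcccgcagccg
Ndufaf3: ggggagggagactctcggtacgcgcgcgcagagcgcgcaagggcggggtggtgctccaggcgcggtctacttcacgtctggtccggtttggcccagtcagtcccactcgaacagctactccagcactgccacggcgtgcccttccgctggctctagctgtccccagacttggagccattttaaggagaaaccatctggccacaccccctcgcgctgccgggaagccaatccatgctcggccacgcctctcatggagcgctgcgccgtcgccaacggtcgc

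Entries were found for 39 members, 32 subunits and 7 factors, and each window was searched on both strands for 4 motifs of factors known to act at nuclear genes of mitochondrial proteins. The ETS core CCGGAAG, the site of factors such as GABPA, was in 4 of 32 subunit windows (12.5%: Ndufb6, Ndufb7, Ndufs3 and Ndufs8), in 2 of 7 factor windows (28.6%: Ndufaf1 and Ndufaf8), and in 11.4% of 17492 windows of all genes. In Ndufs8 it reads CTTCCGG in capitals, on the other strand. The NRF1 site, GCGCA followed at once by its reverse complement, was in 1 subunit window (3.12%) and 2 factor windows (28.6%), against 1.23% of all windows. The YY1 site AAGATGGC was in 2 subunit windows (6.25%) and 1 factor window (14.3%), against 2.53% of all, and the site of oestrogen-related receptors, TCAAGGTCA, was in 0 subunit and 0 factor windows, against 0.326% of all. The share of subunit windows with the ETS core was thus close to that of all genes. A match describes letters only, and the same holds for a missing match.

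Levels were first set per length of a representative transcript, as TPM (transcript counts per kilobase, scaled to a common total), so that genes can be ordered. Over the 36 subunits the median level was 525 ± 45.1 TPM in AAV9-LMNA hearts and 440 ± 14.1 TPM in untreated knockout hearts (SD, n = 5 and n = 3 libraries). The median of the 7 factors tested was 30.2 ± 3.31 TPM and 25.7 ± 5.00 TPM in the same groups. Subunit messages were thus far more abundant than those of the factors. Ndufb10, a membrane-arm subunit, had the highest level at 1710 ± 61.7 TPM in AAV9-LMNA hearts and 1470 ± 111 TPM in untreated knockout hearts. Ndufa1 had 1360 ± 34.9 TPM in AAV9-LMNA hearts and 1140 ± 152 TPM in untreated knockout hearts, and lay below Ndufb10 without overlap in the AAV9-LMNA libraries. Levels fall in steps to Ndufb3, with 252 ± 18.4 TPM in AAV9-LMNA hearts and 237 ± 14.2 TPM in untreated knockout hearts. Breaks without overlap in the AAV9-LMNA libraries come, for example, after Ndufb7, Ndufa9 and Ndufb6. A further gap followed Ndufb3, with Ndufs4 at 120 ± 15.1 TPM in AAV9-LMNA hearts and 98.0 ± 4.34 TPM in untreated knockout hearts. The lowest subunit levels were those of Ndufa3, at 5.03 ± 1.57 TPM in AAV9-LMNA hearts and 4.79 ± 1.18 TPM in untreated knockout hearts, and Ndufc1, at 4.33 ± 0.937 TPM and 5.73 ± 1.60 TPM. Some low levels belong to genes with annotated copies, whose reads unstranded counting can split or set aside. For the lowest genes few stretches are shared: of 50-base stretches, 0% of Ndufa3 and 5.2% of Ndufc1 also occur in other genes' transcripts. Overlap with NONCODE features was not examined. Whether such low levels come from the RNA or from the counting was not tested.

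**Figure D1:**
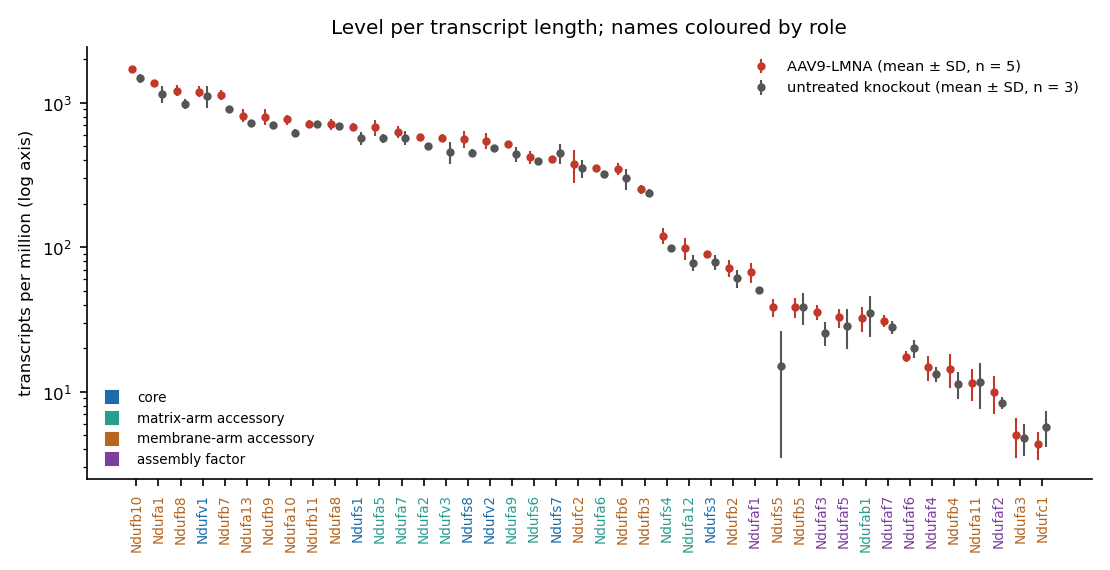
Mean level ± SD of 42 of the 43 members tested, in TPM on a log axis, in AAV9-LMNA hearts (n = 5) and untreated knockout hearts (n = 3), ordered by level. Most subunits sit on a high shelf down to Ndufb3 at 252 TPM in AAV9-LMNA hearts, and the 7 factors lie among the low genes.

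Between the groups, complex I messages were higher in AAV9-LMNA hearts. Of the 36 subunits, 28 rose (edgeR, p below 0.05 after Benjamini-Hochberg adjustment over all features), 0 fell and 8 did not pass. Of the 7 factors tested, 4 rose, 0 fell and 3 did not pass. At an unadjusted p below 0.05, too, 0 subunits and 0 factors were lower by edgeR, DESeq2 or limma-voom. Over all 26717 features tested 10.6% were called higher and 15% lower, and over 13785 protein-coding genes 18.4% higher and 6.07% lower. The median log2 fold change was 0.51 over the subunits and 0.49 over the factors, against −0.03 over all features and 0.21 over coding genes. The called subunits ranged from 0.32 to 1.69 on the log2 scale, with Ndufs5 alone at the top. Normalised CPM of all AAV9-LMNA libraries exceeded all untreated knockout libraries for 28 subunits and 3 factors, where 13.8% of all features and 23.1% of coding genes did so. Each of the 43 members tested had at least 15 counts in every library, so none was tested on the strength of 1 group. In bulk RNA, more cells that express a gene and more RNA per cell cannot be told apart.

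The calls depended on the scaling and on transcript length. With the Ensembl features scaled alone, which moved the coding median to 0.02, 13 subunits and 2 factors were called higher, where 4.33% of features were, and the median was 0.31 for subunits and for factors. The corrections for length and GC content used the Ensembl features too, so their counts stand against these 13 subunits and 2 factors. With GC content corrected 12 subunits and 2 factors were called higher, where 4.59% of features were, and with length corrected 2 subunits and 2 factors, where 2.85% were. With both corrected 0 subunits and 2 factors passed by edgeR, where 2.87% of features were called higher. At an unadjusted p below 0.05, 15 subunits were then higher and 0 lower by edgeR. The share of all features at that unadjusted threshold was not taken, so this count has no background to be read against. On all features and without a correction, DESeq2 called 29 subunits higher, limma-voom 28 and edgeR with no filter 30, where 14.6%, 11.3% and 5.17% of features were higher.

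**Figure D2:**
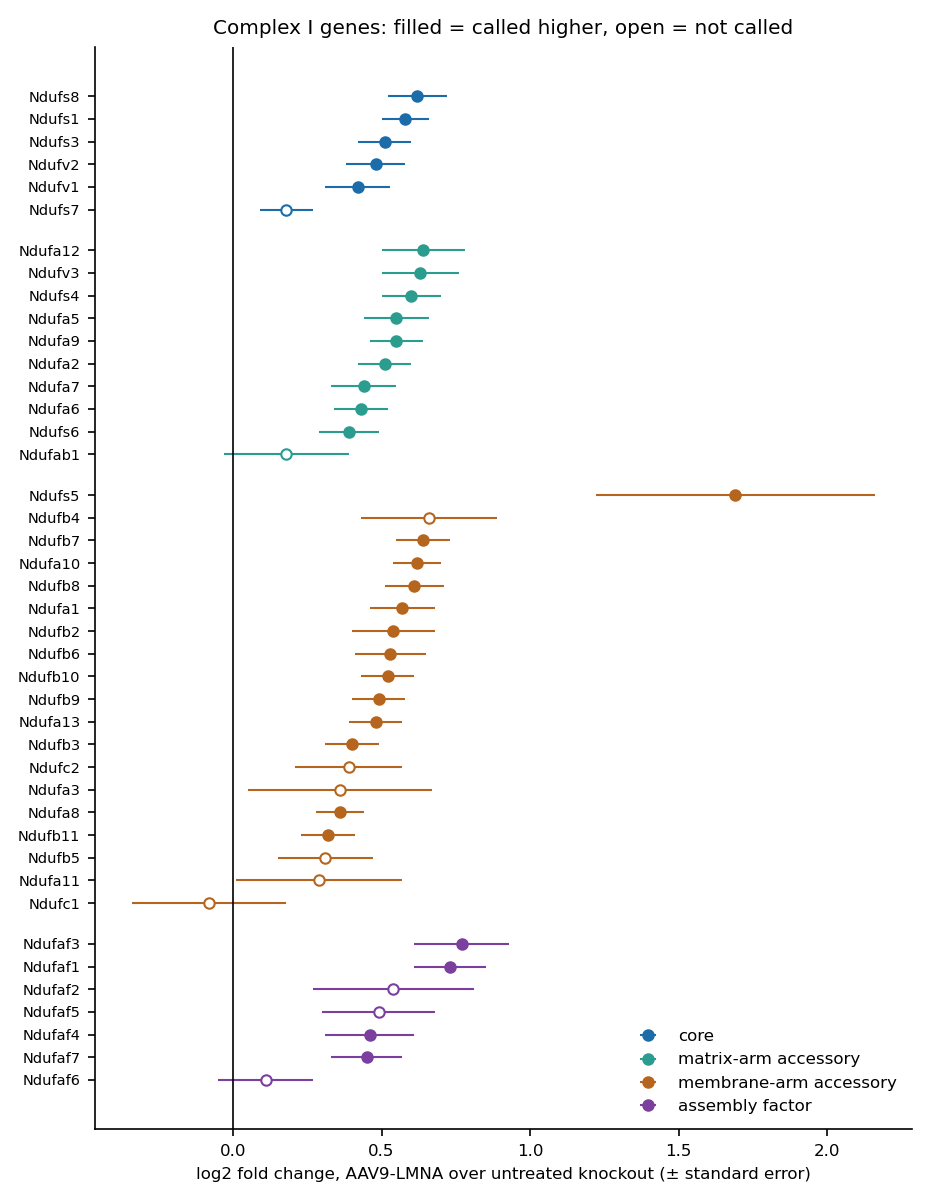
Log2 fold change ± SE of AAV9-LMNA over untreated knockout hearts for 42 of the 43 members tested, by role, filled where called higher. Nearly all points lie between 0 and 0.8, Ndufs5 stands alone at 1.69 with a long error bar, and Ndufc1 at −0.08 is the 1 point left of 0.

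The core subunits rose in 6 of 7 cases, with a median log2 fold change of 0.51. Ndufs8, an iron-sulfur subunit between the matrix arm and the membrane, had 234, 261, 249, 269 and 290 CPM in AAV9-LMNA hearts and 154, 185 and 168 CPM in untreated knockout hearts, without overlap (log2 0.62 ± 0.10, edgeR adjusted p = 0.00381). Ndufs1, the largest subunit of the matrix arm and a carrier of iron-sulfur clusters, had 846, 817, 830, 828 and 844 CPM in AAV9-LMNA hearts and 599, 533 and 539 CPM in untreated knockout hearts. Its AAV9-LMNA libraries lay close together, all above every untreated one (log2 0.58 ± 0.08, edgeR adjusted p = 0.00249).

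Ndufs3, which joins the quinone-binding module early in assembly, had 45.4, 42.6, 46.5, 43.4 and 44.7 CPM in AAV9-LMNA hearts and 34.1, 30.3 and 29.4 CPM in untreated knockout hearts (log2 0.51 ± 0.09, edgeR adjusted p = 0.00528). The groups did not overlap, though 39.7% of its 50-base stretches also occur in transcripts of other genes, so its count is uncertain. Ndufv2, an iron-sulfur partner of Ndufv1, had 403, 438, 411, 447 and 480 CPM in AAV9-LMNA hearts and 282, 338 and 317 CPM in untreated knockout hearts (log2 0.48 ± 0.10, edgeR adjusted p = 0.00788). Ndufv1, which binds NADH and the flavin, had 1035, 843, 879, 925 and 1009 CPM in AAV9-LMNA hearts and 795, 612 and 694 CPM in untreated knockout hearts. Its lowest AAV9-LMNA library was just above its highest untreated one, and its call (log2 0.42 ± 0.11, edgeR adjusted p = 0.0207) was lost when AAV9-LMNA library 5 was left out. Ndufs7, which holds the last iron-sulfur cluster before ubiquinone, was the core subunit that did not pass. It had 149, 137, 145, 146 and 149 CPM in AAV9-LMNA hearts and 145, 120 and 121 CPM in untreated knockout hearts, with library 6 inside the AAV9-LMNA range (log2 0.18 ± 0.09, edgeR adjusted p = 0.173). With Ensembl features scaled alone its log2 fold change was −0.03, and after the length and GC correction −0.19.

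**Figure D3:**
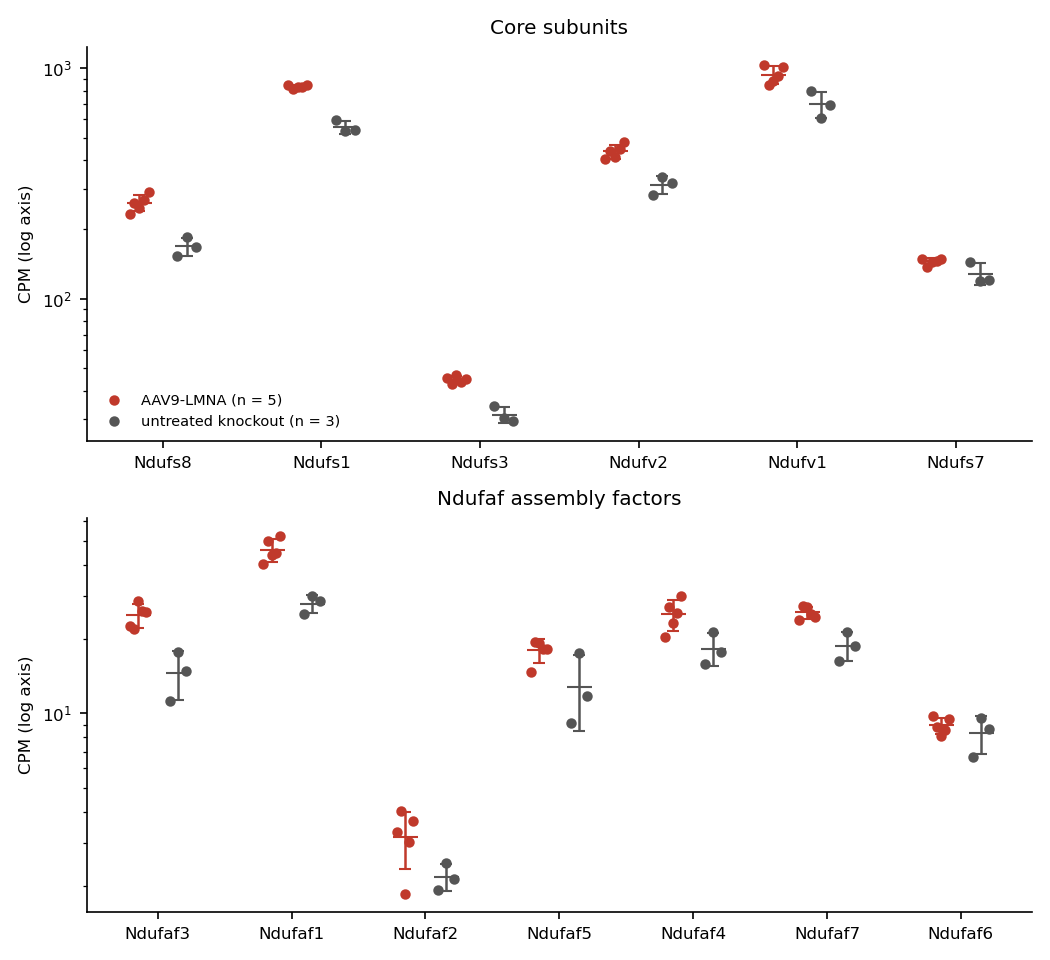
Normalised CPM on a log axis for 6 of the 7 core subunits and the 7 factors tested, 1 point per library, with mean ± SD, in AAV9-LMNA hearts (n = 5) and untreated knockout hearts (n = 3). Groups are separate for every core subunit shown but Ndufs7, and for Ndufaf3, Ndufaf1 and Ndufaf7 among the factors.

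Of the accessory subunits of the matrix arm, 9 of 10 rose, with a median log2 fold change of 0.53. Ndufa12, which joins the arm late in assembly, had 50, 55.2, 46.7, 62.4 and 44.2 CPM in AAV9-LMNA hearts and 28.7, 38.6 and 32.0 CPM in untreated knockout hearts (log2 0.64 ± 0.14, edgeR adjusted p = 0.00977). Ndufv3, a small subunit next to the NADH-binding pair, had 425, 429, 433, 403 and 439 CPM in AAV9-LMNA hearts and 217, 333 and 278 CPM in untreated knockout hearts (log2 0.63 ± 0.13, edgeR adjusted p = 0.00731). In both genes the groups were apart, and library 7 was the highest of the untreated hearts. Of the 50-base stretches of Ndufa12, 26.2% also occur in transcripts of Gm15920, so its count is uncertain. Ndufs4, whose loss in mice is a model of Leigh syndrome, rose by a log2 of 0.60 ± 0.10, with 96.5 ± 8.56 CPM in AAV9-LMNA hearts and 63.6 ± 4.88 CPM in untreated knockout hearts (SD, edgeR adjusted p = 0.00404). Ndufa5, Ndufa9, Ndufa2, Ndufa7, Ndufa6 and Ndufs6 also rose, by log2 fold changes between 0.55 and 0.39.

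Ndufab1, the mitochondrial acyl carrier protein, which also serves fatty acid and lipoic acid synthesis, was the matrix-arm gene that did not pass. It had 16.4, 20.6, 24.8, 25.5 and 20.5 CPM in AAV9-LMNA hearts and 16.4, 26.4 and 14.4 CPM in untreated knockout hearts (log2 0.18 ± 0.21, edgeR adjusted p = 0.539). Library 7 was above all AAV9-LMNA libraries, and its direction turned with Ensembl features scaled alone (−0.01), after the length and GC correction (−0.09) and without libraries 6 and 8 (−0.28). Sequence shared with 11 other genes covers 31.2% of its 50-base stretches.

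Of the membrane-arm accessory subunits, 13 of 19 rose, with a median log2 fold change of 0.49. Ndufa10 had 701, 719, 735, 749 and 745 CPM in AAV9-LMNA hearts and 485, 484 and 452 CPM in untreated knockout hearts. It had the smallest adjusted p of all members (log2 0.62 ± 0.08, edgeR adjusted p = 0.0016), with tight and separate groups. Ndufb7, a subunit on the intermembrane-space face, had 329, 329, 338, 323 and 352 CPM in AAV9-LMNA hearts and 196, 223 and 225 CPM in untreated knockout hearts (log2 0.64 ± 0.09, edgeR adjusted p = 0.002). Ndufb4 had 6.03, 6.02, 4.93, 7.26 and 8.69 CPM in AAV9-LMNA hearts and 4.06, 5.16 and 3.31 CPM in untreated knockout hearts. Its log2 value was 0.66 ± 0.23, but library 7 lay inside the AAV9-LMNA range and the gene did not pass (edgeR adjusted p = 0.054). Transcripts of other genes share 37.0% of the 50-base stretches of Ndufb4, so its count is uncertain too.

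Of the other membrane-arm genes, Ndufb8, Ndufa1, Ndufb2, Ndufb6, Ndufb10, Ndufb9, Ndufa13, Ndufb3, Ndufa8 and Ndufb11 rose, by log2 fold changes between 0.61 and 0.32. The call of Ndufb11 was lost in 6 of the 8 fits that left out 1 library, those without library 1, 2, 3, 5, 6 or 8, and that of Ndufb2 without library 8. Ndufc2 (log2 0.39) and Ndufa3 (log2 0.36) did not pass. The smallest values were those of Ndufc1, Ndufa11 and Ndufb5. Ndufc1 had 3.27, 1.97, 1.94, 2.79 and 2.85 CPM in AAV9-LMNA hearts and 3.28, 1.96 and 2.91 CPM in untreated knockout hearts, with full overlap (log2 −0.08 ± 0.26, edgeR adjusted p = 0.827). Ndufa11 had 3.41, 2.16, 2.47, 2.92 and 3.94 CPM in AAV9-LMNA hearts and 3.12, 2.56 and 1.59 CPM in untreated knockout hearts (log2 0.29 ± 0.28, edgeR adjusted p = 0.448). Ndufb5 had 17.2, 16.9, 20.3, 21.4 and 22.2 CPM in AAV9-LMNA hearts and 19.2, 15.9 and 12.3 CPM in untreated knockout hearts (log2 0.31 ± 0.16, edgeR adjusted p = 0.17). Groups overlapped in all 3 genes, and after the length and GC correction Ndufa11 was at −0.04.

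Ndufs5, a subunit on the intermembrane-space side, had the largest fold change of the members. It had 8.22, 9.85, 9.25, 10.3 and 10.1 CPM in AAV9-LMNA hearts and 5.00, 0.64 and 3.22 CPM in untreated knockout hearts, 3.22-fold apart (log2 1.69 ± 0.47, edgeR adjusted p = 0.0288). All AAV9-LMNA libraries were above all untreated ones, and library 7 was by far the lowest. The call was lost without AAV9-LMNA library 2, 3, 4 or 5, and without library 8. Leaving out 1 library at a time gave log2 fold changes between 1.22 and 2.32, and against library 7 alone the value was 3.90 (edgeR adjusted p = 5.78e-06).

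The gene lies at chr4:123712710-123718202 on the minus strand (GRCm38), and the annotation holds a processed pseudogene of it, BC002163, at chr16:42955631-42955949 on the plus strand. Over 319 aligned bases 317 are identical (99.4%), and the 2 that differ, in capitals, fall within 80 bases of the coding sequence in the reference genome.
Ndufs5: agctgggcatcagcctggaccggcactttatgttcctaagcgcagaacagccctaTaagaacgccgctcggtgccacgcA
BC002163: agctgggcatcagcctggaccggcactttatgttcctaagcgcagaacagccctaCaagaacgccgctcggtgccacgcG
BC002163 had 78.7, 79.9, 84.9, 81.0 and 82.2 CPM in AAV9-LMNA hearts and 45.6, 123 and 77.8 CPM in untreated knockout hearts. Library 7 was thus the lowest for the gene and the highest for the copy. The copy's log2 fold change was −0.01 ± 0.25 (edgeR adjusted p = 0.97). The sum of both was 90.9 ± 2.72 CPM in AAV9-LMNA hearts and 85.2 ± 36.8 CPM in untreated knockout hearts (SD, n = 5 and n = 3), and these overlapped. Only 2 of the 319 aligned bases tell gene and copy apart, and the letters of these mixed-strain animals were not read. The gene's transcript has 525 bases, and 41.2% of its 50-base stretches also occur in the copy. The counts of the gene alone are therefore uncertain.

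Of the 8 assembly factors, 7 were tested. Ndufaf1, which in human cells acts in the membrane-bound assembly complex with ECSIT and ACAD9, had 40.2, 49.8, 43.6, 44.4 and 52.3 CPM in AAV9-LMNA hearts and 25.3, 29.8 and 28.4 CPM in untreated knockout hearts. The groups were separate, at 1.66-fold (log2 0.73 ± 0.12, edgeR adjusted p = 0.0035), and of all members Ndufaf1 was the 1 gene called in every fit run, with log2 fold changes of 0.42 to 0.80. Ndufaf3, which works with Ndufaf4 on the quinone-binding module, had 22.6, 21.9, 28.5, 26.1 and 25.8 CPM in AAV9-LMNA hearts and 11.2, 17.8 and 14.9 CPM in untreated knockout hearts. It was 1.71-fold higher with no overlap (log2 0.77 ± 0.16, edgeR adjusted p = 0.00802), and its call was lost only without libraries 6 and 8 (edgeR adjusted p = 0.0732).

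Ndufaf4 had 20.4, 26.9, 23.2, 25.5 and 29.9 CPM in AAV9-LMNA hearts and 15.8, 21.3 and 17.8 CPM in untreated knockout hearts (log2 0.46 ± 0.15, edgeR adjusted p = 0.041). Library 7 was above the lowest AAV9-LMNA library, and the call was lost without any 1 of libraries 2, 3, 4, 5, 6 or 8. Ndufaf7, a methyltransferase that acts early in assembly in human cells, had 24.0, 27.3, 27, 25.2 and 24.6 CPM in AAV9-LMNA hearts and 16.3, 21.3 and 18.7 CPM in untreated knockout hearts, without overlap (log2 0.45 ± 0.12, edgeR adjusted p = 0.0191). It was called in all 8 fits that left out 1 library, but lost in 5 other fits: with Ensembl features alone (edgeR adjusted p = 0.0859), after the GC (0.0609), length (0.285) and length and GC (0.225) corrections, and without libraries 6 and 8 (0.23).

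The other 3 factors tested overlapped between groups. Ndufaf2, a paralogue of Ndufa12 that binds late assembly intermediates, had 3.32, 4.02, 1.85, 3.01 and 3.67 CPM in AAV9-LMNA hearts and 1.93, 2.47 and 2.13 CPM in untreated knockout hearts (log2 0.54 ± 0.27, edgeR adjusted p = 0.148). Exons of B230220B15Rik overlap 65.6% of its exon bases, so unstranded counting could miss or mix its reads. Ndufaf5, which hydroxylates an arginine of NDUFS7 in human cells, had 14.7, 19.5, 19.3, 18.3 and 18.2 CPM in AAV9-LMNA hearts and 9.11, 17.6 and 11.8 CPM in untreated knockout hearts (log2 0.49 ± 0.19, edgeR adjusted p = 0.0837). Library 1 was the lowest of the AAV9-LMNA hearts and library 7 the highest of the untreated ones, and without library 7 its log2 fold change was 0.80. Ndufaf6, needed in human cells for the mitochondrially encoded ND1, had 9.76, 8.83, 8.11, 8.59 and 9.46 CPM in AAV9-LMNA hearts and 6.69, 9.55 and 8.67 CPM in untreated knockout hearts, nearly the same range (log2 0.11 ± 0.16, edgeR adjusted p = 0.621). Its direction turned in several fits, for example to −0.17 after the length and GC correction. Ndufaf8, a partner of Ndufaf5, had raw counts of 0, 4, 0, 1 and 0 in AAV9-LMNA libraries and 0, 0 and 1 in untreated knockout libraries and was not tested.

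Subunits and factors were set side by side in each library as the median over their genes of log2(CPM + 0.5) minus each gene's mean over the 8 libraries. For subunits this was 0.19, 0.16, 0.16, 0.19 and 0.28 in AAV9-LMNA libraries 1 to 5 and −0.36, −0.21 and −0.34 in untreated knockout libraries 6 to 8. For factors it was 0.08, 0.27, 0.20, 0.20 and 0.34 in AAV9-LMNA hearts and −0.47, −0.09 and −0.31 in untreated knockout hearts. The subunit value minus the factor value was 0.11, −0.11, −0.04, −0.01 and −0.06 in AAV9-LMNA hearts and 0.11, −0.12 and −0.03 in untreated knockout hearts, so the groups overlapped. A difference between subunits and factors was not tested. Summed over subunits, the level was 9580 ± 217 CPM in AAV9-LMNA hearts and 6640 ± 196 CPM in untreated knockout hearts, a ratio of 1.44. Summed over factors it was 152 ± 10.8 CPM in AAV9-LMNA hearts and 103 ± 17.0 CPM in untreated knockout hearts, a ratio of 1.48 (SD, n = 5 and n = 3).

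Length moved with the fold change across the transcriptome. Among 11530 coding genes with a mean log2 CPM over 1, Spearman's rho between log2 fold change and transcript length was −0.42 across genes, which share the 8 libraries and are no independent replicates. In 5 length classes of 2306 genes the median log2 fold change was 0.40, 0.31, 0.24, 0.15 and −0.04, shortest to longest. The shortest class, of 258 to 1745 bases, had 37.1% of its genes called higher and held 33 subunits and 5 factors. Of these 33 subunits, with a median of 0.51, 26 rose, and of these 5 factors, with a median of 0.54, 2 rose. Over the 36 subunits alone rho was 0.13. The slope of this log2 CPM deviation on log2 length was −0.055, −0.055, −0.065, −0.056 and −0.086 in AAV9-LMNA libraries and 0.132, 0.071 and 0.114 in untreated knockout libraries, so the groups differed in it without overlap. This slope and the group cannot be told apart here, and its share in the complex I calls was measured only through the corrections.

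**Figure D4:**
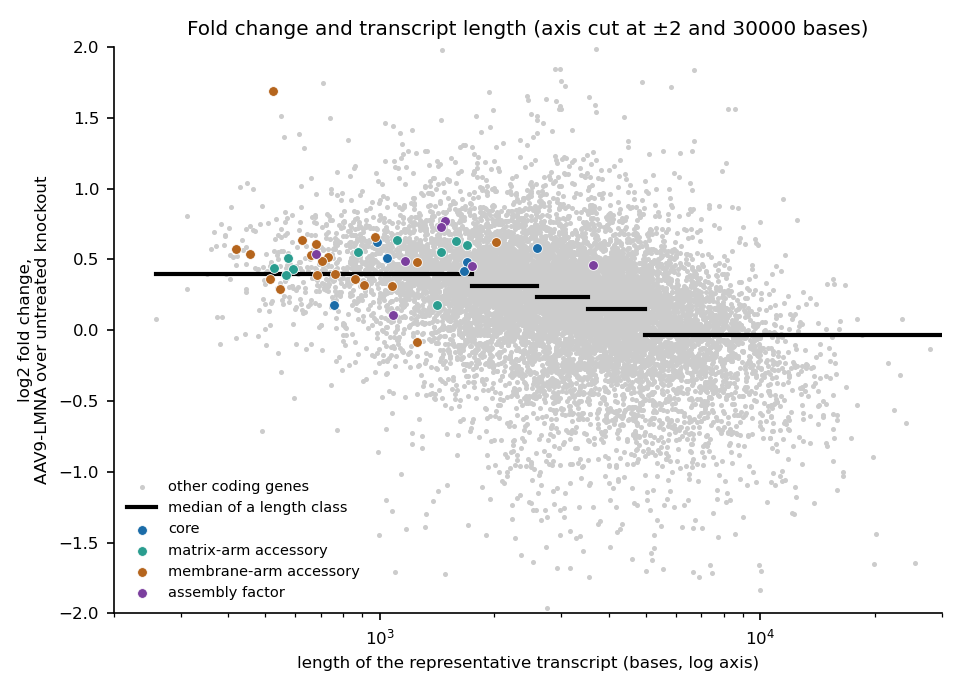
Log2 fold change of AAV9-LMNA over untreated knockout hearts against transcript length (bases, log axis) for coding genes, with 42 complex I members coloured by role and the median of each of 5 length classes as a bar. The class medians step down with length, from 0.40 to −0.04, and most members lie in the shortest class, on both sides of its bar.

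Without libraries 6 and 8, which left library 7 as the lone untreated heart, assumed to vary like the AAV9-LMNA hearts, 17 subunits and 1 factor were called higher, where 3.81% of all features were. The medians were then 0.40 for subunits, 0.28 for factors and 0.15 for coding genes. After the length and GC correction of the Ensembl features, which left 2.87% of them called higher, they were 0.21, 0.29 and 0.04. Every subunit and factor median stayed above the coding median in each of these fits.

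**Figure D5:**
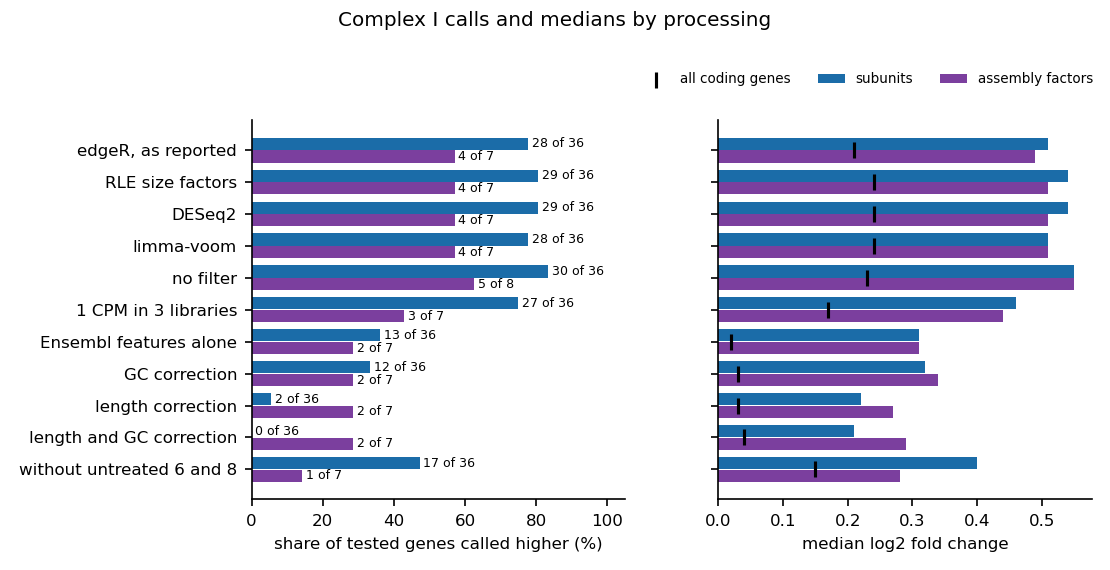
Share of tested complex I genes called higher (left) and median log2 fold change (right) under each way of processing, for subunits and factors, with the coding-gene median as a black mark. Subunit calls run between 30 of 36 without a filter and 0 of 36 after the length and GC correction, which, like the GC and the length correction, was run on Ensembl features, while both medians stay right of the coding mark.

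Most of the other nuclear genes of the pathway that were tested also rose. Of 12 other genes of complex I assembly, 11 were in the tables and 9 rose, with a median log2 fold change of 0.53 and 0 that fell. They included Ecsit (0.48) and Acad9 (0.46), partners of Ndufaf1, Tmem126b (0.57) and Timmdc1 (0.55), also membrane-arm assembly factors, and Foxred1 (0.46). Nubpl, an iron-sulfur carrier (0.26), and Dmac2 (−0.02) did not pass. Of 49 nuclear genes of complexes II to V, 43 were tested, 32 rose and 0 fell, with a median of 0.50. Among those not tested, Cox6b2, Atp5l, Sdhd and Cox8c had 0 counts in every library. Whether this comes from the RNA or from the counting was not tested. In the same fit 10.6% of all features and 18.4% of coding genes were called higher. With Ensembl features scaled alone 4 of the 11 and 14 of the 43 were called higher, where 4.33% of features were. After the length and GC correction on those features 1 and 2 were, where 2.87% of features were. The complex I median was thus close to that of the other complexes, and a difference between them was not tested. Ndufa4, once placed in complex I and now known as a subunit of cytochrome c oxidase, rose by 0.40 on the log2 scale (edgeR adjusted p = 0.0187).

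The mitochondrially encoded subunits went the other way as far as they could be measured. Of 7 mt-Nd genes, 2 were tested and both fell. Mt-Nd4 had 1240, 894, 775, 1380 and 1060 CPM in AAV9-LMNA hearts and 2340, 2350 and 2720 CPM in untreated knockout hearts (mt-Nd4 log2 −1.21 ± 0.17, edgeR adjusted p = 0.00221). Mt-Nd2 had 944, 812, 621, 1170 and 722 CPM in AAV9-LMNA hearts and 1220, 1390 and 1550 CPM in untreated knockout hearts (mt-Nd2 log2 −0.70 ± 0.18, edgeR adjusted p = 0.0196). In both the AAV9-LMNA libraries were below all untreated ones, as were 16% of all features. The tables list mt-Nd1, mt-Nd3, mt-Nd5 and mt-Nd6 at 0 in every library, so these 2 genes do not stand for the mitochondrial set. Against library 7 alone the log2 fold changes were −1.12 for mt-Nd4 and −0.69 for mt-Nd2, close to those above, though neither passed (edgeR adjusted p = 0.102 for mt-Nd4 and 0.308 for mt-Nd2).

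Some cell type markers were called higher or lower. Of all features 10.6% were called higher and 15% lower, and of coding genes 18.4% and 6.07%. Of 14 cardiomyocyte markers, 5 rose (Ckm, Mb, Mybpc3, Myl2 and Myl3), 1 fell (Actn2) and 8 did not pass. The 8 fibroblast, 8 macrophage and 6 erythroid markers did not pass, and 2 of 8 endothelial markers rose (Egfl7 and Tie1). All 4 atrial markers tested fell. The atrial list summed to 17.8 to 20.7 CPM in AAV9-LMNA hearts. In untreated knockout libraries 6, 7 and 8 it summed to 30.9, 29.5 and 877 CPM, so library 8 held most of it. The brown fat list summed to 648 to 824 CPM in AAV9-LMNA hearts and 331 to 561 CPM in untreated knockout hearts, where Fabp4 and Cidea rose while Adipoq was at 0 in all libraries and Ucp1 at 0 to 0.0908 CPM. The skeletal muscle list summed to 2080 to 2790 CPM in AAV9-LMNA hearts and 1380 to 1640 CPM in untreated knockout hearts. Most of this was Ckm, at 1980 to 2160 CPM and 1280 to 1380 CPM, which is also on the cardiomyocyte list. The sum is therefore no measure of skeletal muscle alone. Of the list, 1 of 4 tested rose (Ckm), and Myh4 was at 0 in all AAV9-LMNA libraries. The part of cell make-up in the complex I calls was not tested.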

How the data were processed

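Per the labels' protocols, total RNA was isolated with a miRNeasy kit and sequenced from Illumina TruSeq libraries. The authors deposited 1 table per library, with whole read counts per gene that were not normalised and, per the names of the tables, were taken without regard to strand. The submitters' processing notes name TopHat2, HTSeq, limma and edgeR without versions, and the builds GRCm38 and mm10. The tables hold 53465 Ensembl and 87774 NONCODE features, and 53274 of the Ensembl ones matched GENCODE M21. The 5 summary lines of each table entered neither totals nor tests, and give the shares of reads outside features.

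Counts of the 8 libraries were fitted in R 4.3.3 with edgeR 4.0.16 (quasi-likelihood test, robust, TMM scaling, filterByExpr by group, no covariate), and p-values were adjusted by Benjamini-Hochberg over all 26717 features tested at 0.05. CPM are TMM-scaled. TPM used a representative GENCODE transcript per gene, over Ensembl features. In simulated data of the same size the test recovered 87.9% of 4-fold, 47.8% of 2-fold and 7.46% of 1.5-fold changes. Of 99 calls, 4 were on unchanged features. These changes were put, up or down at random, into 66, 67 and 67 of 26717 features. The real comparison called 2843 features higher and 4015 lower, so the recovered shares do not give its power. Alternatives were DESeq2 1.42.0, limma-voom (limma 3.58.1), RLE size factors, other filters, Ensembl features alone, loess corrections for length and GC (span 0.5, on Ensembl features), and fits without 1 library or without libraries 6 and 8.

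Values per library are given for the core subunits but 1, which enters the counts and medians and is not reported here by name, for Ndufaf genes, and for the accessory subunits with the 6 largest and 4 smallest fold changes. Members and gene lists were chosen with earlier results of these data known. Exon overlap with another GENCODE gene's exons affects 18 of the 44 members, 7 of them over more than 10% of their exon bases. Further, 14 share more than 10% of their 50-base stretches with other genes' transcripts, so the counts of all these are uncertain. Overlap with NONCODE features was not examined, so the other members may be affected too. Ambiguous reads made up 24.0 to 26.4% in AAV9-LMNA libraries, and 21.0, 24.9 and 24.5% in untreated knockout libraries 6, 7 and 8. Counts carry no molecular identifiers.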

Additional observations from a re-analysis of the deposited data

Results flagged for a closer look

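Among the 43 members tested, 2 had 1 AAV9-LMNA library far from the other 4, and chance alone gives such a gap in about 1 of 20 groups of this size. Ndufaf5 was lowest in AAV9-LMNA library 1, at 14.7 CPM, against 18.2 to 19.5 CPM in the other AAV9-LMNA libraries. Ndufs4 was highest in AAV9-LMNA library 5, at 112 CPM, against 90.5 to 94.4 CPM in the other AAV9-LMNA libraries.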

How the results depend on the processing

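With RLE size factors, DESeq2, limma-voom, no filter and a minimum of 1 CPM in 3 libraries, the counts of subunits and factors called higher stayed within 1.5 times those reported. Scaling the Ensembl features alone gave 13 subunits and 2 factors (medians 0.31 and 0.31), 14 genes of complexes II to V and 4 other assembly genes. The corrections were run on the Ensembl features, so their values are to be set against these. Features called higher were 4.33% with Ensembl features alone, 4.59% after the GC, 2.85% after the length and 2.87% after the length and GC correction. The GC correction gave 12 subunits and 2 factors (medians 0.32 and 0.34), 11 genes of complexes II to V and 4 other assembly genes. The length correction gave 2 subunits and 2 factors (0.22 and 0.27), 4 genes of complexes II to V and 1 other assembly gene. The length and GC correction gave 0 subunits and 2 factors by edgeR (0.21 and 0.29), 2 genes of complexes II to V and 1 other assembly gene. Without libraries 6 and 8 there were 17 subunits and 1 factor (0.40 and 0.28), 21 genes of complexes II to V and 4 other assembly genes, and Lmna had a log2 fold change of 2.56 (edgeR adjusted p = 0.191). Leaving out 1 library gave 25 to 30 subunits, 3 to 5 factors and medians of 0.49 to 0.56 and 0.38 to 0.66. The coding median moved as well in these fits, from 0.16 without library 6 to 0.27 without library 7. Their shares of all features called higher were not taken. The cause of these shifts was not tested.

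The direction turned in genes that had not passed. With Ensembl features alone, Ndufab1 was at −0.01, Ndufs7 at −0.03 and Ndufaf6 at −0.08. After the length and GC correction, Ndufa11 was at −0.04, Ndufab1 at −0.09, Ndufs7 at −0.19 and Ndufaf6 at −0.17. After the length correction, Ndufab1 was at −0.12, Ndufb5 at −0.03, Ndufs7 at −0.13 and Ndufaf6 at −0.19, and after the GC correction Ndufs7 was at −0.05 and Ndufaf6 at −0.06. Without libraries 6 and 8, Ndufa3 was at −0.01, Ndufab1 at −0.28, Ndufaf6 at −0.08 and Ndufc1 at 0.40. Leaving out 1 library, Ndufc1 ranged from −0.26 to 0.09 and Ndufaf6 from −0.02 to 0.24. No paired analysis was possible because the groups share no replicate number. A missed call does not show that a gene was alike in both groups.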
